A study of Rattus norvegicus with 6 samples.

Results

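The collagen genes are the genes whose name in the deposited rat table reads Col, a number, a, and a number, and 42 of the 22250 genes in the table met this rule. The question the samples address is how left ventricular myocardium of aged donor hearts differs from that of young donor hearts after heart transplantation. The groups were 3 young donor hearts from rats of 10 weeks (libraries WT3, WT13 and WT15) and 3 aged donor hearts from rats of 1 year (libraries OT3, OT4 and OT7). Every donor was a Sprague-Dawley rat of WT genotype, and every heart was kept in cold preservation solution, underwent heterotopic transplantation into a young rat and was sampled on postoperative day 1, so no library comes from a heart that was not transplanted. RNA-Seq of polyadenylated RNA gave 21457509 to 24560869 reads counted on genes per heart. The labels do not say whether libraries of a group came from separate litters or surgical days, and a p-value here measures only the spread between these 6 libraries.

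Collagens are proteins in which 3 chains wind into a triple helix, and they carry much of the mechanical strength of the heart's matrix. Fibrillar collagens such as types I and III form the fibers between muscle bundles, type IV forms the sheet of the basement membrane around cardiomyocytes and vessels, type VI forms beaded filaments near cells, and fibril-associated collagens decorate the fibers. In the heart, fibroblasts are the main source of fibrillar chains, while endothelial and mural cells and cardiomyocytes also contribute to basement membranes.

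Of the 34 tested collagen genes, 29 had a log2 fold change below 0 in aged donor hearts and 5 had one above 0. The size of these differences depended on the scaling of the libraries, as given below. A gene was called when it passed the limits the study used. These ask for a fold over 1.5, or one less than 0.67, together with a p-value under 0.05 before adjustment, taken here from the quasi-likelihood test of edgeR. Of the 34 collagen genes that passed the filter on low counts, 19 were lower and past the limits in aged hearts, against 19.0% of all 13784 genes tested, and 0 were higher, against 13.2% of all genes tested. In CPM, all 3 aged hearts lay below all 3 young hearts in 19 of the 34, where the share over all genes was 20.6%. All aged hearts lay above all young hearts in 1, where the share over all genes was 21.0%. Both counts of 19 shared 17 genes. The median log2 fold change was -0.99 over the 34 collagen genes and 0.02 over all genes. None of the differences passed correction: by edgeR with Benjamini-Hochberg adjustment, 0 of 34 collagen genes and 0 of 13784 genes (0%) had an adjusted p-value under 0.05, with 19 and 4731 at an unadjusted p-value under 0.05. DESeq2's Wald test gave an adjusted p-value under 0.05 to 16 of the 34 and to 3592 genes in all, and limma-voom to 0 of either. Leaving out 1 heart at a time, 12 (without OT7) to 17 of the 34 were lower. Over all 13784 genes, those fits called 1611 (without WT3) to 3312 (without WT15) lower, with 1873 without OT7. The 11 genes lower in each of those 6 fits were Col4a3, Col4a4, Col4a5, Col4a6, Col6a6, Col9a3, Col11a2, Col14a1, Col15a1, Col22a1 and Col24a1. Of the 8 others, Col3a1 lost its call without WT3, OT4 or OT7, Col1a1 and Col6a1 without most hearts, and Col5a1, Col5a3, Col8a2, Col20a1 and Col27a1 without OT7 and at least 1 other heart.

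Young heart WT15 stood apart from WT3 and WT13, and this touched the collagen genes unevenly. Its log2 CPM lay nearer the aged mean than the mean of WT3 and WT13 in 17 of the 34 collagen genes, against 69.7% of all genes tested. Without WT15, 15 collagen genes were lower and past the limits, where the share over all genes was 24.0%, and 5 were higher, where the share over all genes was 27.1%. In that fit, 20 of the 34 collagen genes had an edgeR adjusted p-value under 0.05, and 15 of the 20 were lower. So did 6670 of all 13784 genes. Of the 19 genes lower with all 6 hearts, 14 stayed lower without WT15, and Col1a1, Col5a1, Col5a3, Col6a1 and Col8a2 did not pass the limits. The 5 genes that were higher without WT15 were Col7a1, Col8a1, Col12a1, Col17a1 and Col18a1. For each of these genes the value without this heart is given below.

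**Figure D1:**
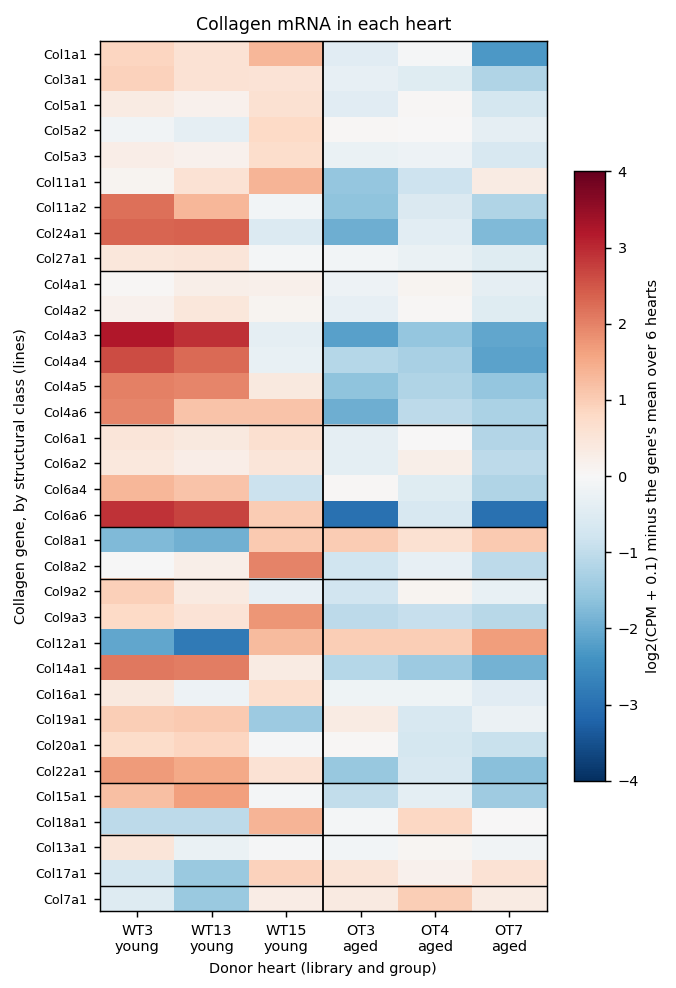
Each row is one of the 34 tested collagen genes, each column a donor heart, and the color is log2(CPM + 0.1) minus the mean of that gene over the 6 hearts, with black lines between structural classes and between the groups. WT3 and WT13 are red in most rows and the aged hearts blue, while in Col8a1, Col12a1, Col18a1, Col17a1 and Col7a1 WT3 and WT13 are blue and WT15 is red.

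Cell type markers moved between the same hearts, and the part of these shifts in the collagen differences was not tested. The summed CPM of 10 fibroblast markers ran from 2156 to 3711 in young hearts and from 1189 to 2099 in aged hearts. Of the 10, 5 were lower and past the limits (Dpt, Gsn, Mfap5, Fbln1 and Htra3) and 0 higher, beside 19.0% lower and 13.2% higher over all genes. Pdgfra and Tcf21 were not called, at log2 fold changes of 0.81 and -0.06. Without WT15, 6 markers were lower and 1, Pdgfra, was higher, beside 24.0% and 27.1% over all genes. The 10 cardiomyocyte markers measured summed to 12125 to 101364 CPM in young hearts, the lowest being WT15, and to 579 to 6986 CPM in aged hearts. Myh6, the main myosin heavy chain of the adult rat ventricle, was at 26873 and 29955 CPM in WT3 and WT13, 1085 CPM in WT15 and 13.6 to 515 CPM in aged hearts, so the labelled tissue carried its defining marker at very different levels. The 9 neutrophil markers summed to 6.47 to 137 CPM in young and 362 to 1395 CPM in aged hearts, and the 9 macrophage markers to 285 to 900 CPM and 939 to 2246 CPM. The ranges overlapped for 8 endothelial markers, at 1174 to 1704 CPM in young and 995 to 1552 CPM in aged hearts, and for 6 myofibroblast markers, at 269 to 1006 CPM and 570 to 702 CPM. Smooth muscle and pericyte markers summed to 1010 to 1684 CPM in young and 863 to 956 CPM in aged hearts. Mesothelial, cartilage and Schwann cell lists summed to at most 95.7 CPM in any heart, with the cartilage genes Matn1 and Matn3 at no more than 3 reads. In bulk tissue, fewer cells of a type and less RNA per cell cannot be told apart.

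Summed over the 42 genes, collagen took 12847 ± 837 CPM (SD, n = 3) in young and 7100 ± 1647 CPM (SD, n = 3) in aged donor hearts. The hearts held 13067, 11922 and 13553 CPM in WT3, WT13 and WT15, and 7392, 8582 and 5327 CPM in OT3, OT4 and OT7, so the groups did not overlap and OT7 was the lowest. The ratio of the means was 1.81, and the mean difference in log2 CPM was -0.88. This size depended on the scaling, which here was the trimmed mean of M values (TMM). As an unscaled share of the reads counted on genes, collagen was 1.12% ± 0.31 (SD, n = 3) in young and 0.835% ± 0.19 (SD, n = 3) in aged hearts, with WT13 at 0.874% below OT3 at 0.916% and OT4 at 0.97%. With library totals alone in place of TMM, the median log2 fold change of all genes moved to 0.46 and that of the 34 collagen genes to -0.52. Of the 34, 11 were lower and past the limits, beside 1441 of all 13784 genes. The 11 were the same collagen genes that were lower whichever heart was left out. Lack of overlap also depended on the scaling. Of the genes without overlap in CPM, Col1a1, Col4a2, Col5a1, Col5a3, Col6a1, Col6a2, Col8a2 and Col27a1 overlapped in FPKM, which divides by library total.

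The type IV genes gave the widest spread within a single collagen type. Col4a1 and Col4a2 encode the chains of the ubiquitous basement membrane network, Col4a3, Col4a4 and Col4a5 the chains of the network best known from glomerular basement membrane, and Col4a6 a chain of smooth muscle basement membrane that pairs with the Col4a5 product. The 6 genes sit in head-to-head pairs. In RefSeq annotation of the rat build GRCr8, the start sites of Col4a1 and Col4a2 were 77 bases apart on chromosome 16, those of Col4a3 and Col4a4 were 413 bases apart on chromosome 9, and those of Col4a5 and Col4a6 were 1415 bases apart on the X chromosome. The windows from 250 bases before to 50 bases after the start site are shown for Col4a1 (chr16:84885347-84885646, plus strand), Col4a3 (chr9:91323740-91324039, plus strand) and Col4a4 (chr9:91323528-91323827, minus strand), because Col4a1 differed from Col4a3 and Col4a4 in fold change, and for Col8a1 (chr11:56246532-56246831, plus strand), whose fold change had the other sign. Sequences are RefSeq's, 5′ to 3′, and capitals mark matches to the GC box letters GGGCGG or the CCAAT box letters CCAAT on either strand. No motif searched contains another.
Col4a1: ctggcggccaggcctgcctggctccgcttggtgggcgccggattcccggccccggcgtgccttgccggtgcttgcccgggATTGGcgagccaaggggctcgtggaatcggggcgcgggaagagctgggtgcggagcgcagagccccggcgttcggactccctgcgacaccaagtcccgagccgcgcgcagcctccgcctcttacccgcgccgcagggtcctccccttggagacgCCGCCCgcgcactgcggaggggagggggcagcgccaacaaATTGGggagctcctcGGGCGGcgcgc
Col4a3: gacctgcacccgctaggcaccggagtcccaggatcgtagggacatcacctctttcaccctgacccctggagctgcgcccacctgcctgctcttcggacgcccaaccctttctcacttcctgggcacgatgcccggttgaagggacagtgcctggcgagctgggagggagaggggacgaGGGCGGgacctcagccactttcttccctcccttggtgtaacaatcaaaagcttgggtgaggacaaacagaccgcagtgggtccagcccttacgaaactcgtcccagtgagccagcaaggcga
Col4a4: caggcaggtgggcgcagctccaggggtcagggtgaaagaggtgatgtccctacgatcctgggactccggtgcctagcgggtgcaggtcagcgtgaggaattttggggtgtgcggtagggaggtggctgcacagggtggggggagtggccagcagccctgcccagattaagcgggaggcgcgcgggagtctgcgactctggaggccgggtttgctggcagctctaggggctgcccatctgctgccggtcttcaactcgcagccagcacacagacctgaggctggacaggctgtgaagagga
Col8a1: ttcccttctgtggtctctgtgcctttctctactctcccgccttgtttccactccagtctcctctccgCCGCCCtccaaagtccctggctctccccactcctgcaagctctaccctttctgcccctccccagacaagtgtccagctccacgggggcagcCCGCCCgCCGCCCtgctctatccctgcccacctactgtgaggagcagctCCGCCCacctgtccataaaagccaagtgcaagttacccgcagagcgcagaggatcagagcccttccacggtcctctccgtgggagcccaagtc

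In these windows, Col4a1 held 2 GC boxes and 2 CCAAT boxes, Col4a3 held 1 GC box, Col4a4 held none of the letters searched, and Col8a1 held 4 GC boxes. A window was found for 33 of the 42 collagen genes. The GC box was in 57.6% of these 33 windows and in 33.1% of all 33469 windows, the CCAAT box in 30.3% and 37.5%, and the TATA box letters TATAAA in 9.1% and 14.2%. A match describes the letters in the window and no binding was measured.

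Col4a1 and Col4a2 were abundant in every heart. Col4a1 was at 2073, 2361 and 2303 CPM in WT3, WT13 and WT15, and at 1758, 2160 and 1575 CPM in OT3, OT4 and OT7, so the groups overlapped. Its log2 fold change was -0.29 ± 0.35 (SE, n = 3 per group; edgeR adjusted p = 0.556), and with library totals alone it was 0.15. Col4a2 was at 1190, 1430 and 1134 CPM in young and 841, 1079 and 756 CPM in aged hearts, all aged hearts below all young hearts. Its log2 fold change was -0.49 ± 0.31 (edgeR adjusted p = 0.279). With library totals alone that value was -0.03, and in FPKM the groups overlapped. Neither gene passed the limits.

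Col4a3, Col4a4, Col4a5 and Col4a6 all fell past the limits, and in each the aged hearts lay below every young heart. Col4a3 was at 57.3 and 47.0 CPM in WT3 and WT13, 4.79 CPM in WT15, and 1.28, 2.05 and 1.38 CPM in OT3, OT4 and OT7. Its log2 fold change was -4.53 ± 0.92, the lowest of the 34 with all 6 hearts (edgeR adjusted p = 0.0916), and its reads fell from 947 and 739 in WT3 and WT13 and 116 in WT15 to between 36 and 54 in aged hearts. WT15 was thus far below the other young hearts and above the aged hearts.

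Col4a4, the head-to-head neighbor of Col4a3, followed the same order among the young hearts but not among the aged hearts. It was at 225, 178 and 29.7 CPM in young and 16.8, 15.1 and 8.32 CPM in aged hearts, with a log2 fold change of -3.43 ± 0.76. Col4a5 was at 186, 179 and 60.2 CPM in young and 15.1, 20.1 and 15.7 CPM in aged hearts, with a log2 fold change of -3.06 ± 0.46. Col4a6 was the least abundant of the 4, at 6.84, 3.88 and 3.88 CPM in young and 0.361, 0.758 and 0.651 CPM in aged hearts, and its log2 fold change was -3.04 ± 0.45. The 4 genes shared an edgeR adjusted p-value of 0.0916, the smallest any of the 34 reached.

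Per gene length, the chains of the ubiquitous network were the more abundant in every heart. The FPKM of Col4a1 and Col4a2 together was 428, 475 and 630 in WT3, WT13 and WT15 and 542, 618 and 455 in OT3, OT4 and OT7, whereas that of Col4a3, Col4a4 and Col4a5 together was 44.6, 37.3 and 13.8 in young and 5.04, 5.41 and 3.93 in aged hearts. The ratio of the second sum to the first was 0.104, 0.0785 and 0.022 in young and 0.00929, 0.00876 and 0.00864 in aged hearts. This ratio does not depend on library scaling. It was 6.34 times lower in aged hearts on the log2 average, with no overlap. The log2 difference moved from -2.67 to -3.35 without WT15 and to -2.22 without WT3. With all 6 hearts a two-sided exact permutation test gave p = 0.1, the smallest that 3 hearts against 3 allow (adjusted p = 0.2 over the 4 ratios tested). The sum was chosen after the values were seen.

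**Figure D2:**
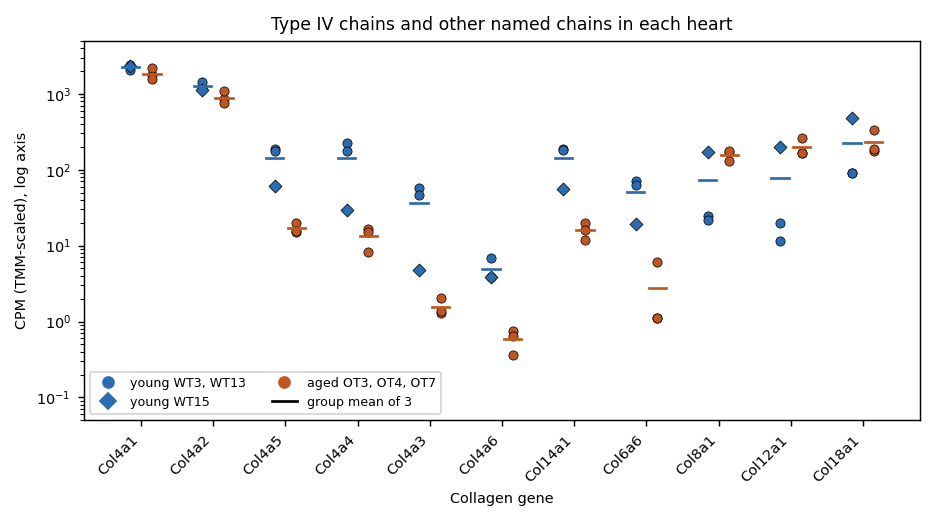
CPM of the 6 type IV genes and 5 other collagen genes in each donor heart on a log axis, with young hearts in blue, WT15 as a diamond, aged hearts in orange and a bar at each group mean of 3. Col4a1 and Col4a2 sit close together in both groups, Col4a3, Col4a4, Col4a5 and Col4a6 step down from WT3 and WT13 to the aged hearts, and in Col8a1, Col12a1 and Col18a1 WT15 lies with or above the aged hearts.

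Among fibrillar chains, 7 of 9 tested genes fell past the limits, beside 19.0% lower over all genes, and the median log2 fold change of the 9 was -1.32. With library totals alone, Col11a2 and Col24a1 stayed past the limits, and Col1a1, Col3a1, Col5a1, Col5a3 and Col27a1 did not. Col3a1, the chain of type III collagen in compliant fibers, was the most abundant collagen gene in 5 of the 6 hearts by FPKM. It was at 4766, 3734 and 3689 CPM in young and 2007, 1779 and 1083 CPM in aged hearts, and the groups did not overlap. The log2 fold change was -1.32 ± 0.44 (edgeR adjusted p = 0.104) and without WT15 it was -1.36.

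Col1a1 encodes the major chain of type I collagen, the stiff fiber of scar and interstitium. It was at 1917, 1576 and 2661 CPM in young and 763, 1031 and 217 CPM in aged hearts, with OT7 far below the rest and WT15 the highest. The log2 fold change was -1.61 ± 0.62 (edgeR adjusted p = 0.127), and it was -1.36 without WT15. By FPKM, Col1a1 ranked 2, 4 and 2 among collagen genes in WT3, WT13 and WT15 and 4, 4 and 9 in OT3, OT4 and OT7. The ratio of Col1a1 to Col3a1 by FPKM was 0.329, 0.345 and 0.59 in young and 0.311, 0.474 and 0.164 in aged hearts, which overlapped (exact permutation p = 0.4, adjusted p = 0.4).

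Col1a2, the partner chain of type I collagen, stood in the table only as 2 entries under another name, described there as collagen type I alpha 2, and was no member by the rule. The entry with more reads (ENSRNOG00000011292, chr4:31534225-31569151 in Rnor_6.0) held 245 to 1213 reads per heart, and the other (ENSRNOG00000052925) 9 to 44. The ratio of Col1a1 to the first entry was 17.7 to 54.3 by FPKM. Reads from near-identical copies can be lost or split in counting, and the level of this chain is uncertain. The main entry was at 27.1, 26.3 and 50.1 CPM in young and 20.1, 19.6 and 9.39 CPM in aged hearts, with a log2 fold change of -1.07 ± 0.40 (edgeR adjusted p = 0.122). Col6a3 and Col21a1 were not among the gene names that met the rule.

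The type V chains take part in starting fibrils and setting their width, and 2 of the 3 were called, beside 19.0% lower over all genes. Col5a1 was at 434, 387 and 524 CPM in young and 249, 354 and 210 CPM in aged hearts, with a log2 fold change of -0.72 ± 0.29. Col5a3 was at 204, 192 and 277 CPM in young and 143, 147 and 108 CPM in aged hearts, with a log2 fold change of -0.76 ± 0.24. Both passed the limits and their groups did not overlap in CPM (edgeR adjusted p = 0.134 and 0.0993), and without WT15 neither passed, at -0.57 and -0.55. With library totals alone they were at -0.32 and -0.35, and in FPKM their groups overlapped. Col5a2 was at 288, 250 and 550 CPM in young and 325, 320 and 249 CPM in aged hearts, which overlapped, and its log2 fold change of -0.28 ± 0.36 changed sign without WT15, to 0.18, and with library totals alone, to 0.07.

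The minor fibrillar chains were scarce. Col24a1 was at 8.23, 8.46 and 1.03 CPM in young and 0.328, 1.14 and 0.383 CPM in aged hearts, so WT15 fell inside the aged range. Its log2 fold change was -3.25 ± 0.92, and it ran from -4.03 without OT4 to -2.90 without WT13. Col11a2, a chain of the type XI fibrils found with type II in cartilage, was at 8.71, 4.71 and 1.69 CPM in young and 0.525, 1.18 and 0.728 CPM in aged hearts, with a log2 fold change of -2.63 ± 0.67, or -1.97 without WT3. Col27a1 was at 20.7, 21.3 and 14.3 CPM in young and 14.0, 12.7 and 10.8 CPM in aged hearts. These 3 genes passed the limits, Col27a1 only just, with a log2 fold change of -0.58 ± 0.24 and a ratio of 0.667 against the limit of 0.67. Col11a1 did not pass, at 1.27, 1.78 and 3.14 CPM in young and 0.328, 0.607 and 1.49 CPM in aged hearts.

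**Figure D3:**
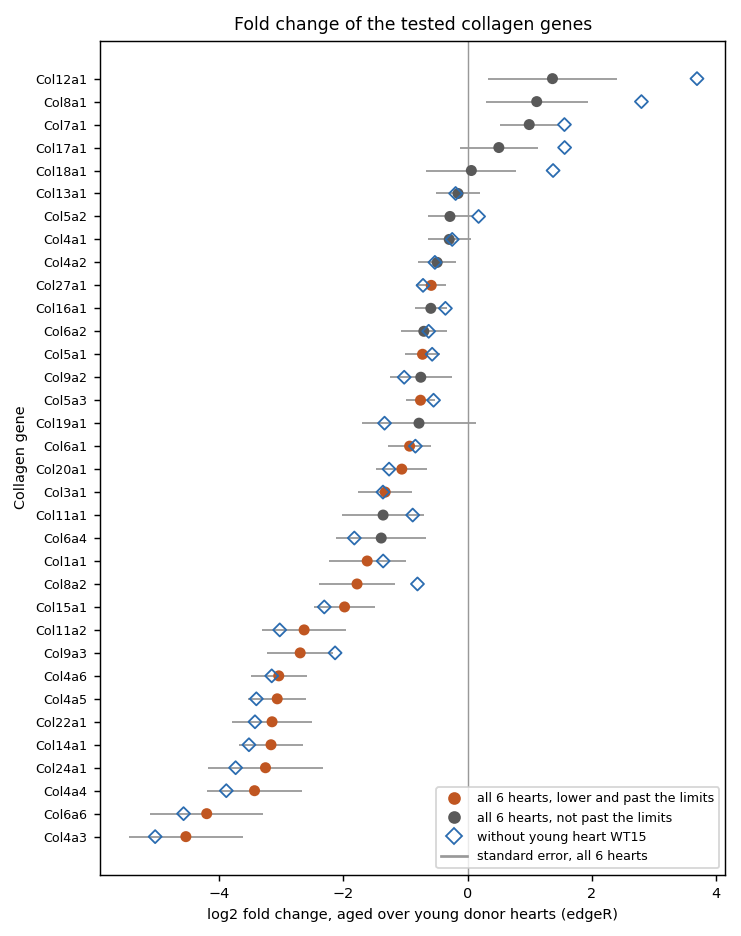
Log2 fold change of aged over young donor hearts for the 34 tested collagen genes, sorted, with all 6 hearts (circles, with standard errors) and without WT15 (diamonds). The 19 orange circles are lower and past the limits, from Col4a3 at -4.53 to Col27a1 at -0.58, and leaving out WT15 moves Col12a1 and Col8a1 the farthest to the right.

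Type VI collagen forms the beaded filaments that link cells to the matrix. Col6a1 was at 582, 539 and 640 CPM in young and 324, 416 and 183 CPM in aged hearts, and it fell past the limits with a log2 fold change of -0.93 ± 0.35 (edgeR adjusted p = 0.124), which without WT15 was -0.84 and did not pass. Col6a2 was at 579, 520 and 610 CPM in young and 332, 511 and 207 CPM in aged hearts. Its groups did not overlap in CPM, by a margin of 520 against 511 CPM, but did in FPKM, as did those of Col6a1. The log2 fold change of Col6a2, -0.70 ± 0.37, did not pass the limits (edgeR adjusted p = 0.212).

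Col6a6, an alternative long chain of type VI, was low in aged hearts, with OT4 the highest of the 3. It was at 71.4, 62.6 and 19.2 CPM in young and 1.12, 6.14 and 1.11 CPM in aged hearts. Its log2 fold change was -4.19 ± 0.91 (edgeR adjusted p = 0.0916), and it ran from -5.51 without OT4 to -3.81 without OT3. It was scarce beside Col6a1 and Col6a2. Col6a4 was at 2.24 CPM or less in every heart, with no call with all 6 hearts and a lower call without WT15.

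The fibril-associated collagens had log2 fold changes of both signs. Col14a1, which coats fibrils and takes part in their growth, was at 190, 181 and 55.3 CPM in young and 19.8, 16.0 and 11.8 CPM in aged hearts. It fell with a log2 fold change of -3.16 ± 0.52 (edgeR adjusted p = 0.0916), and WT15 stood between the other young hearts and the aged hearts. Col12a1, a close relative in structure known from tissue under tension, was low in WT3 and WT13 and high in the other 4 hearts. It was at 19.7, 11.6 and 199 CPM in WT3, WT13 and WT15 and at 164, 166 and 263 CPM in aged hearts.

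With all 6 hearts Col12a1 did not pass the limits, at a log2 fold change of 1.37 ± 1.04 (edgeR adjusted p = 0.362), and without WT15 it did, at 3.69 (edgeR adjusted p = 0.00184). The other genes of this class were less abundant. Col16a1 was at 42.5, 28.2 and 51.5 CPM in young and 28.9, 28.7 and 23.6 CPM in aged hearts, with a log2 fold change of -0.59 ± 0.25 that missed the p-value limit (edgeR adjusted p = 0.155). Col20a1 was at 5.02, 5.60 and 2.93 CPM in young and 3.09, 1.82 and 1.57 CPM in aged hearts. It passed the limits at -1.06 ± 0.41 although OT3 lay above WT15.

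A pair of scarce genes of this class also fell. Col22a1, known from tissue junctions such as those of muscle and tendon, was at 1.75, 1.53 and 0.743 CPM in young and 0.0985, 0.265 and 0.0766 CPM in aged hearts, or 18 to 29 reads against 2 to 7. Col9a3, a chain of the type IX collagen of cartilage, was at 0.847, 0.699 and 1.78 CPM in young and 0.164, 0.19 and 0.153 CPM in aged hearts. Their log2 fold changes were -3.14 ± 0.64 and -2.69 ± 0.53, and both rest on few reads. Leaving out 1 heart, the value of Col22a1 ran from -3.84 without OT4 to -2.85 without OT7. Col9a2 and Col19a1 were tested and not called.

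Among the short-chain and multiplexin collagens, the relatives in a pair had fold changes of unlike sign or size, and the differences within pairs were not tested. Col8a1 encodes a type VIII chain of vessel walls, known to be induced on vascular injury. It was at 24.5 and 22.0 CPM in WT3 and WT13, 173 CPM in WT15, and 169, 130 and 175 CPM in OT3, OT4 and OT7. The log2 fold change was 1.11 ± 0.82 with all hearts (edgeR adjusted p = 0.346) and 2.80 without WT15 (edgeR adjusted p = 0.00121). Its partner chain Col8a2 was at 3.27, 3.94 and 13.5 CPM in young and 1.87, 2.62 and 1.57 CPM in aged hearts, with WT15 again the highest young heart, and it fell past the limits at -1.78 ± 0.62 (edgeR adjusted p = 0.112). Without WT15 that value was -0.81 and no longer past the limits.

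Col15a1 and Col18a1 encode the multiplexins, basement membrane collagens whose ends release restin and endostatin. Col15a1 was at 49.5, 67.3 and 20.4 CPM in young and 10.6, 16.3 and 7.89 CPM in aged hearts and fell past the limits at -1.98 ± 0.49 (edgeR adjusted p = 0.0916). A second entry described as type XV-like held 20 to 62 reads per heart, and reads could be split between the entries. Col18a1 was at 90.4 and 91.7 CPM in WT3 and WT13, 484 CPM in WT15 and 176, 330 and 189 CPM in aged hearts. WT15 was thus the highest of all 6 hearts, and the log2 fold change was 0.06 ± 0.72 with it and 1.38 without it.

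Of the remaining genes, Col7a1, the anchoring fibril chain best known from skin, was the one tested collagen gene with all aged hearts above all young hearts. It was at 8.47, 4.26 and 15.0 CPM in young and 15.6, 24.3 and 15.3 CPM in aged hearts, with a log2 fold change of 0.99 ± 0.47 that missed the limits (edgeR adjusted p = 0.183) and of 1.56 without WT15, which passed them. The transmembrane collagens Col13a1 and Col17a1 were tested and not called, at log2 fold changes of -0.15 and 0.50, and Col17a1 was higher and past the limits without WT15, at 1.56. The 8 genes that did not pass the filter were Col2a1, Col6a5, Col9a1, Col10a1, Col23a1, Col25a1, Col26a1 and Col28a1, with at most 15 reads in any heart. Col10a1, at no more than 2 reads, overlaps Nt5dc1 on the opposite strand, and whether counting used strand was not given in the sources used here.

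Set per length, types I and III took smaller mean shares of collagen mRNA in aged hearts and type IV a larger one. No test was run on the shares. Types I and III made up 14.0% ± 2.96 and 34.1% ± 4.90 of the summed collagen FPKM in young hearts and 7.85% ± 3.65 and 24.9% ± 3.92 in aged hearts (SD, n = 3), with type I here being Col1a1 alone. The type I shares did not overlap between the groups, while type III in WT15, at 29.3%, lay just under OT3, at 29.4%. Type IV made up 25.6% ± 4.11 in young and 34.6% ± 4.53 in aged hearts. Its share was 24.1%, 30.2% and 22.5% in young and 30.8%, 33.3% and 39.6% in aged hearts, without overlap. Type VI, here without Col6a3, took 14.1% ± 0.14 and 13.9% ± 2.50, and type V 7.41% ± 1.75 and 9.68% ± 0.80. These shares add to a fixed whole, so a fall of one type raises the others.

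Smaller types moved by larger ratios. Type VIII took 0.251% and 0.26% in WT3 and WT13, 1.63% in WT15 and 1.84% to 4.08% in aged hearts, and type XII took 0.0727% and 0.0474%, 0.71%, and 0.944% to 2.48% in the same order. Type XIV took 1.38% and 1.45% in WT3 and WT13, 0.389% in WT15 and 0.179% to 0.257% in aged hearts. In all of these WT15 lay between the other young hearts and the aged hearts. Type XVIII took 0.706% and 0.791% in WT3 and WT13, 3.66% in WT15 and 2.46% to 3.98% in aged hearts.

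**Figure D4:**
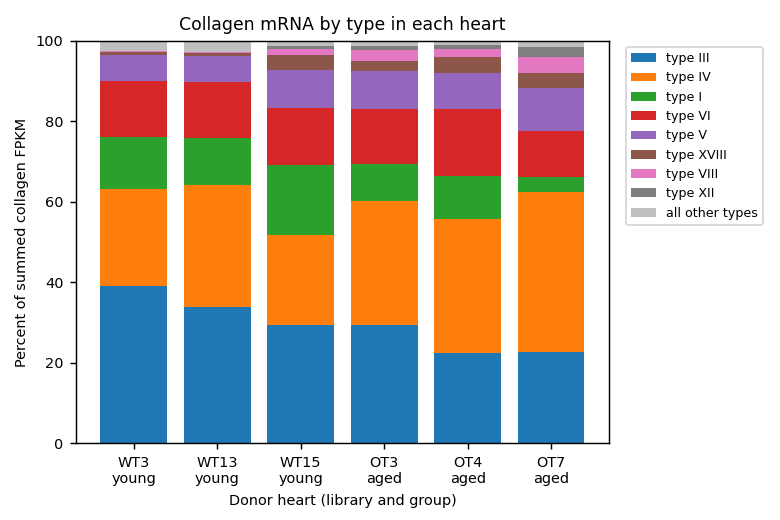
Percent of summed collagen FPKM taken by each collagen type in each donor heart, as stacked bars that add to 100, with type I represented by Col1a1 alone and type VI without Col6a3. Type IV grows from 22.5% to 30.2% in young hearts to 30.8% to 39.6% in aged hearts, type I is smallest in OT7, and types VIII, XII and XVIII are thin in WT3 and WT13 and thicker in WT15 and the aged hearts.

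The genes that modify, export, cross-link, bind, degrade or regulate collagen were called in both directions. Of 87 genes in 7 lists, 83 were in the table and 78 were tested, and 7 were higher and 11 lower past the limits, with a median log2 fold change of 0.02. Both counts lay below the 13.2% and 19.0% called over all genes, against which the counts of each list below are also to be set. Without WT15 the counts were 33 higher and 12 lower, beside 27.1% and 24.0% over all genes. In the list for modification and folding, 17 were tested, 1 was higher and 1 lower. Ppib, a prolyl isomerase of the endoplasmic reticulum, rose from 118, 101 and 174 CPM in young to 205, 228 and 180 CPM in aged hearts, with a log2 fold change of 0.65 ± 0.26 (edgeR adjusted p = 0.14). P3h2, a prolyl 3-hydroxylase that acts on type IV collagen, fell from 15.8, 15.2 and 24.2 CPM to 8.05, 8.19 and 5.67 CPM, with a log2 fold change of -1.33 ± 0.29 (edgeR adjusted p = 0.0916).

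The other folding genes named did not pass the limits, and in 2 of them WT15 lay with the aged hearts. Serpinh1, the collagen chaperone of the endoplasmic reticulum, was at 594, 581 and 1397 CPM in young and 1004, 1515 and 959 CPM in aged hearts, with a log2 fold change of 0.44 ± 0.47, and of 1.01 without WT15. P4ha1, a catalytic subunit of prolyl 4-hydroxylase, was at 51.1, 52.1 and 151 CPM in young and 141, 129 and 146 CPM in aged hearts, with a log2 fold change of 0.71 ± 0.46, and of 1.46 without WT15. P4ha2 was at 54.3, 52.4 and 46.8 CPM in young and 55.5, 66.7 and 50.0 CPM in aged hearts. The log2 fold changes of these 3 genes were above 0, while those of Col1a1 and Col3a1 were below it. Without WT15, Serpinh1 and P4ha1 were higher and past the limits.

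Of 10 genes for export and propeptide processing, 1 was higher and 1 lower. Adamts2, the protease that removes the amino propeptide of fibrillar collagens, fell from 159, 137 and 79.3 CPM to 49.5, 50.2 and 43.8 CPM, with a log2 fold change of -1.39 ± 0.28. Of 5 cross-linking genes, 0 were higher and 1 was lower. Loxl2, a lysyl oxidase, fell from 54.4, 64.3 and 84.5 CPM to 35.9, 53.0 and 31.7 CPM, with a log2 fold change of -0.75 ± 0.27, and without WT15 its -0.53 did not pass the limits. Lox, the founding member of that family, was at 76.6, 65.7 and 164 CPM in young and 177, 142 and 161 CPM in aged hearts and did not pass the limits, with a log2 fold change of 0.65 ± 0.38, and of 1.20 without WT15, which passed them.

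Of 9 degradation genes tested, 2 were higher and 1 lower. Mmp8, a collagenase stored in neutrophils, rose from 0.484, 0.445 and 7.06 CPM to 82.1, 8.83 and 25.4 CPM, a log2 fold change of 3.83 ± 1.35 (edgeR adjusted p = 0.114), and it is set beside the neutrophil marker range above. Ctsl, a lysosomal cathepsin, rose from 398, 365 and 786 CPM to 2196, 1163 and 1140 CPM, with a log2 fold change of 1.54 ± 0.47. Timp3, a matrix-bound inhibitor of metalloproteinases, fell from 239, 259 and 181 CPM to 68.4, 92.5 and 72.9 CPM, with a log2 fold change of -1.54 ± 0.23.

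The 2 gelatinase and membrane-type proteases named did not pass the limits. Mmp2 was at 375, 314 and 207 CPM in young and 216, 89.2 and 198 CPM in aged hearts, which overlapped. Mmp14 was at 106, 101 and 155 CPM in young and 180, 199 and 161 CPM in aged hearts, without overlap, and its log2 fold change of 0.58 ± 0.24 stopped just short of the fold limit. Without WT15 both passed, Mmp2 lower at -1.0 and Mmp14 higher at 0.83.

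Among 7 collagen receptors tested, 0 were higher and 2 were lower, Itga1 and Itga11. Itga1, the integrin chain that binds type IV collagen, was at 64.9, 88.8 and 55.9 CPM in young and 39.7, 46.4 and 43.7 CPM in aged hearts, with a log2 fold change of -0.69 ± 0.22. Of 15 matrix partners, 0 were higher and 4 were lower, and without WT15 5 were higher and 4 lower. All aged hearts lay above all young hearts in 2 of them and below in 6, beside 21.0% and 20.6% over all genes. The 2 were Fn1 and Thbs1, at log2 fold changes of 1.68 ± 0.81 and 3.21 ± 1.44 that missed the p-value limit. Lama2, the laminin chain of muscle basement membrane, fell from 530, 537 and 131 CPM to 54.7, 75.1 and 61.9 CPM, a log2 fold change of -2.64 ± 0.56. Sparc, which binds collagen outside the cell, fell from 3460, 3407 and 2858 CPM to 1425, 1624 and 942 CPM, a log2 fold change of -1.28 ± 0.40. Nid1, which links laminin to type IV collagen, and the laminin chain Lamb1 fell with log2 fold changes of -0.97 ± 0.32 and -0.79 ± 0.30.

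Of 15 regulators of collagen genes, 3 were higher and 1 lower. Tgfb1, the growth factor best known for inducing collagen, rose from 59.7, 56.8 and 146 CPM in young to 231, 184 and 159 CPM in aged hearts, with a log2 fold change of 1.13 ± 0.42 (edgeR adjusted p = 0.123). Its receptor gene Tgfbr1 rose with a log2 fold change of 0.78 ± 0.21, and Skil, a repressor of the same pathway, with one of 0.90 ± 0.21. The 1 gene lower was Tgfb3, at -1.20 ± 0.42, and without WT15 its -0.97 did not pass the limits. Tgfb1 was thus higher in the same aged hearts in which Col1a1 and Col3a1 were lower.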

How the data were processed

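The authors deposited a table of raw read counts and FPKM values for each gene in each heart. Per the labels' processing notes, HISAT2 2.0.5, StringTie 1.3.3b, featureCounts 1.5.0-p3 and DESeq2 1.16.1 were among the tools and Rnor_6.0 was the build. Their settings and the use of strand were not given in the sources used here. The deposited FPKM values divide the counts by gene length and library total.

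Counts were tested with edgeR 4.0.16 in R 4.3.3 (filterByExpr, TMM scaling, quasi-likelihood test, no covariates, Benjamini-Hochberg adjustment over all tested genes). CPM is the count scaled by TMM library size, and 3 reads correspond to 0.0985 to 0.191 CPM. SE is the standard error of a log2 fold change. Replicates of a group differed by more than sampling noise.

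Collagen genes were named if their mean was at least 10 CPM or they passed the limits. Pathway genes were named if they passed the limits at 5 CPM or more without overlap, with 7 fixed besides. Itga11, Tgfb3, Col17a1 and other genes outside this rule were named after their values were seen. Members and lists were chosen with earlier results of these data known. Promoter windows are RefSeq's on GRCr8, matched by symbol, and were not combined with Rnor_6.0 coordinates.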

Additional observations from a re-analysis of the deposited data

How the results depend on the processing

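With library totals alone, the count of lower collagen genes was 11 in place of 19, all 11 among the 19, the summed collagen difference was -0.41 in place of -0.88 in log2 CPM, Col4a1 was at 0.15 and Col5a2 at 0.071. Over all genes that scaling gave 3147 higher and 1441 lower calls in place of 1815 and 2621. With an adjusted p-value under 0.05 as the limit, 0 collagen genes were lower. Leaving out Col1a1 and Col3a1 gave a summed difference of -0.50. Col1a2 could not be left out with them because it was no member. Leaving out each heart in turn gave 12 to 17 lower and 0 to 5 higher collagen genes, the 5 without WT15 and the 12 without OT7, and a summed difference of -1.03 to -0.69. Over all genes, those fits gave 1611 to 3312 lower and 796 to 3730 higher calls. Across those fits the log2 fold change of Col18a1 ran from -0.31 (without WT3 or WT13; -0.28 without OT4) to 1.38, and that of Col5a2 from -0.49 to 0.18. DESeq2's size factors and Wald test left every named collagen gene on its side of the limits (DESeq2 gave Col12a1 no p-value), and limma-voom and no filter on low counts each took 2 of 28 out of them. A filter of 1 CPM in 3 hearts tested 26 of the 28. No paired analysis was run because the labels used here record no pairing of young and aged hearts.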
